A study of Danio rerio with 56 samples.

Results

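The 200 transcripts described here were those lowest, at 10 hours post fertilisation (hpf), in zebrafish embryos whose father alone had been fed benzo[a]pyrene (BaP). They were taken from the 22431 of 57192 measured transcripts that averaged 1 TPM or more (a transcript's share of its library's RNA, corrected for length) over the 16 embryo libraries. A transcript qualified when its highest TPM in the 4 father-only libraries lay below its lowest TPM in the other 12 embryo libraries. Of the 22431, 623 (2.78%) qualified, and the 200 with the lowest ratio of mean TPM, father-only over the other 12, were kept as members. The choice therefore used the father-only values themselves, and the gap between father-only embryos and the others is given throughout as a description. An edgeR count for father-only against control embryos is printed further on, and nothing is read from it.

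The parents were sexually mature fish of the 5D strain, 120 days old, fed flakes treated with acetone alone or with BaP, at 1250 µg/g food (25 µg/g fish), over 21 days. Embryos came from 4 crosses, with 4 RNA libraries each. Cf.Bm.10hpf had a control mother and a BaP-fed father, and Cm.Bf.10hpf the reverse. In BaP 10hpf both parents were taken to be BaP-fed, since the label names only BaP and the other 3 crosses carry labels of their own, and in Control 10hpf both parents ate acetone flakes. BaP eggs and control eggs, 4 libraries each, were the eggs of BaP-fed and of control mothers. The fish carried no transgene, and the embryos themselves were not dosed. The labels do not tie a library to a tank or spawning, so p-values reflect only how far these libraries differ among themselves, which may be technical.

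BaP is a polycyclic aromatic hydrocarbon that activates the aryl hydrocarbon receptor and is turned by cytochrome P450 enzymes into metabolites that bind DNA. A zebrafish egg is loaded by the mother with RNA that runs the first cell cycles. The embryo then switches on its own genome and clears much of the maternal RNA, and by the end of gastrulation most new transcripts are zygotic. A father contributes a genome and little RNA, and a mother contributes the egg's store as well. A transcript that is scarce in eggs and abundant in embryos is therefore mostly of embryonic make, while one abundant in eggs may still be maternal. The files name transcripts only by Ensembl identifiers, which were not matched to gene names here, so no gene function is given and the labelled stage could not be checked against marker genes.

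Library totals ran from 26010776 to 38130629 estimated read counts in embryos and from 36548517 to 55044612 in eggs. An egg-rich set of 5052 transcripts, at least 8 times higher in eggs than in embryos by the means of these same libraries, holds 0 members. It took 0.606% to 1.20% of embryo TPM and 26.6% to 29.7% of egg TPM. That gap between stages was fixed by the choice of the set and is no check of the labels. Only the differences among libraries of 1 stage are described by it. The 1.20% was in replicate 2 of BaP 10hpf, and the other embryo libraries held 0.606% to 0.847%. In whole embryos, fewer cells of a type and less RNA per cell cannot be told apart.

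The typical member stood at about the same reduced level in 3 of the 4 father-only libraries and somewhat higher in the other. Relative to each member's mean over the other 12 embryo libraries, the median member stood at 0.469, 0.503, 0.586 and 0.466 in replicates 1 to 4 of Cf.Bm.10hpf. The same median was 0.809 to 0.915 in Cm.Bf.10hpf, 1.28, 0.902, 1.27 and 1.15 in BaP 10hpf, and 0.862, 1.08, 0.894 and 0.999 in Control 10hpf. Replicate 3 of Cf.Bm.10hpf was the closest of its group to the other crosses, and it held the highest of the 4 father-only values for 120 of the 200 members. Over all 22431 transcripts the corresponding median was 0.902 to 0.964 in the father-only libraries and 0.945 to 1.05 in the other 12, so the typical transcript was also slightly lower on the deposited scale in Cf.Bm.10hpf, by 0.05 to 0.15 on the log2 scale. Summed, the members held 769, 815, 971 and 812 TPM in Cf.Bm.10hpf. They held 1330 to 1555 TPM in Cm.Bf.10hpf, 1453 to 2101 TPM in BaP 10hpf and 1442 to 1777 TPM in Control 10hpf.

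**Figure D1:**
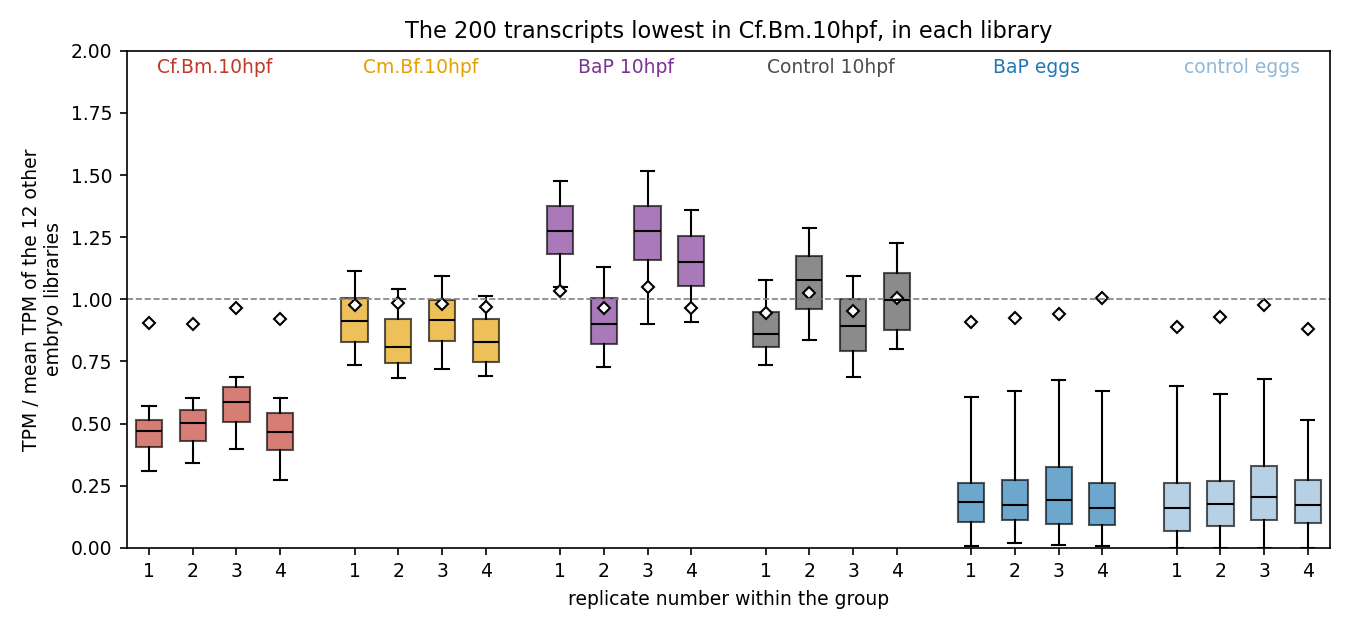
Level of the 200 transcripts in each of the 24 libraries, as TPM over the mean TPM of the 12 embryo libraries outside Cf.Bm.10hpf (y axis, no unit; boxes, 25th to 75th percentile with the median; whiskers, 10th to 90th percentile), with libraries on the x axis by group and replicate. White diamonds mark the median of all 22431 transcripts; the member medians lie between 0.466 and 0.586 in Cf.Bm.10hpf, at or above 0.809 in the other embryos and at or below 0.205 in eggs.

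The size of the imbalance between lowest and highest depended on the scale, and for BaP 10hpf its direction did too. On deposited TPM, 623 transcripts were lowest and 13 highest in Cf.Bm.10hpf without overlap, against 3 lowest and 4 highest in Cm.Bf.10hpf, 13 and 131 in BaP 10hpf, and 20 and 18 in Control 10hpf. After scaling by TMM factors, which align the bulk of transcripts between libraries, 390 were lowest and 99 highest in Cf.Bm.10hpf, against 4 and 4 in Cm.Bf.10hpf, 125 and 83 in BaP 10hpf, and 27 and 17 in Control 10hpf. Cf.Bm.10hpf kept the most transcripts at the bottom on both scales, while BaP 10hpf had more at the top on deposited TPM and more at the bottom after TMM scaling. Of the 200 members, 162 still met the rule after TMM scaling, with its floor of 1 TPM set on the scaled values. The median ratio of all 200 was 0.556, against 0.515 as deposited. On CPM, counts scaled to the library total without the length correction, 156 of the 200 met the rule. The floor there was a mean of at least 1 CPM, so a member could fail without any overlap. The median ratio of the 200 was 0.519 on CPM.

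Members differed in how far they were reduced. Their ratio of mean TPM, Cf.Bm.10hpf over the other 12, was 0.0879 at rank 1, 0.459 at rank 50, 0.515 at rank 100 and 0.547 at rank 150. At the limit, the last 2 members had ratios of 0.569502 and 0.569601, and the first 2 left out had 0.569882 and 0.571. The limit of 200 thus falls in a continuous run that ends at 0.874 for the last of the 623. The separation between libraries was often narrow. The lowest of the other 12 values was a median of 1.15 times the highest father-only value, under 1.1 times for 66 members and at least 1.5 times for 6.

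The 2 members of lowest ratio rest on few reads. ENSDART00000135116.2, of 695 bases, had 0.170, 0, 0.240 and 0.386 TPM in Cf.Bm.10hpf, from 6.80 estimated counts in all. It had 1.34, 0.969, 3.14 and 1.84 TPM in Cm.Bf.10hpf, 0.841, 4.55, 4.09 and 3.39 TPM in BaP 10hpf, and 1.83, 1.90, 2.36 and 0.914 TPM in Control 10hpf. The lowest value of the other crosses, in replicate 1 of BaP 10hpf, was 2.18 times the highest father-only value, the widest such gap of the 200, and the BaP 10hpf replicates spread most. ENSDART00000158468.2, of 971 bases, had 0.118, 0, 0.304 and 0.387 TPM in Cf.Bm.10hpf from 10.2 estimated counts. Its values were 1.64, 0.462, 0.875 and 1.76 TPM in Cm.Bf.10hpf, 1.64, 1.16, 2.5 and 1.04 TPM in BaP 10hpf, and 0.524, 1.48, 0.942 and 1.79 TPM in Control 10hpf. It lay in eggs at 0.889 ± 0.139 TPM (SD, n = 4, BaP eggs) and 0.757 ± 0.137 TPM (SD, n = 4, control eggs), so its father-only level was below the egg level too.

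The 2 most abundant members gave a firmer picture at a milder ratio. ENSDART00000182735.1, of 2410 bases, had 56.1, 56.8, 78.4 and 57.4 TPM in Cf.Bm.10hpf. It had 103, 87.9, 107 and 87.5 TPM in Cm.Bf.10hpf, 137, 96.0, 139 and 131 TPM in BaP 10hpf, and 91.0, 115, 107 and 122 TPM in Control 10hpf. Replicate 3 of Cf.Bm.10hpf stood above its group, and 3 of the 4 BaP 10hpf libraries stood above every library of the other crosses. ENSDART00000185524.1, of 261 bases, had 54.2, 57.6, 64.7 and 57.7 TPM in Cf.Bm.10hpf. It had 99.9, 91.9, 110 and 83.7 TPM in Cm.Bf.10hpf, 153, 79.1, 129 and 128 TPM in BaP 10hpf, and 97.0, 111, 79.9 and 98.4 TPM in Control 10hpf. Replicate 2 of BaP 10hpf was the lowest of the 12 non-father-only libraries for this transcript.

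**Figure D2:**
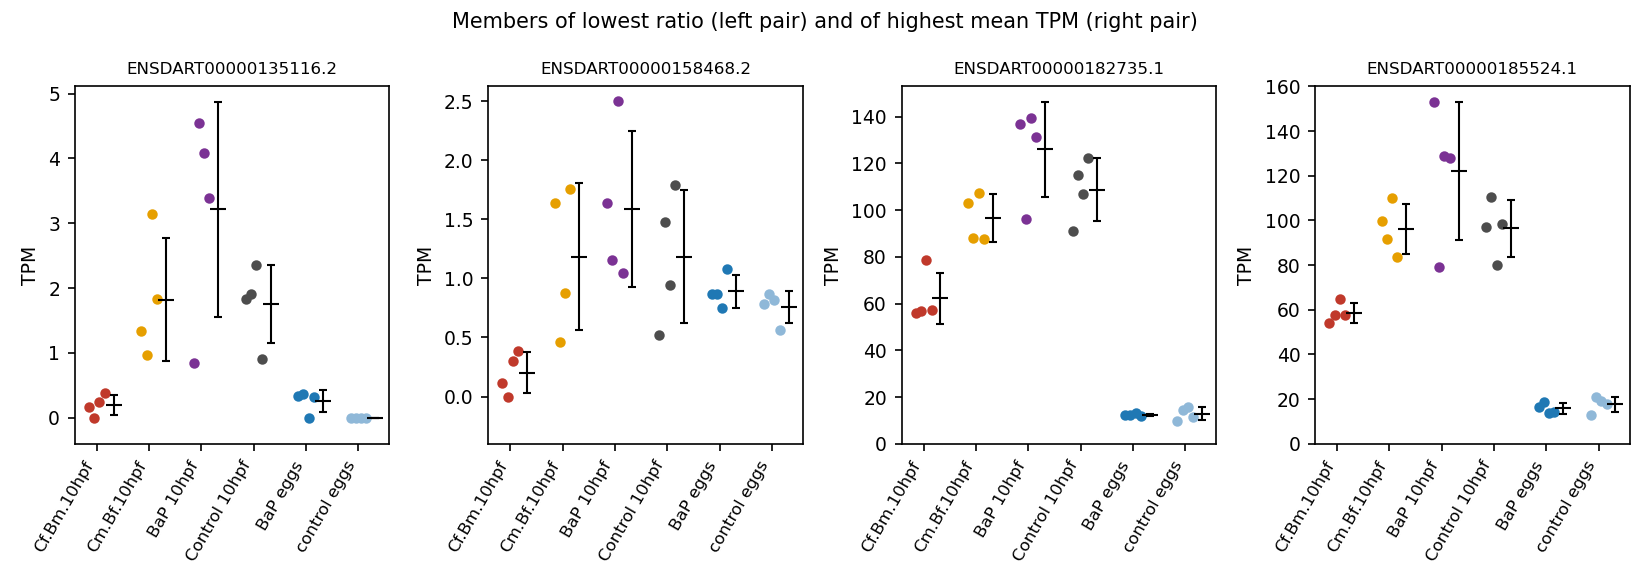
TPM (y axis, own scale in each panel) of the 2 members of lowest ratio and the 2 of highest mean level in the 4 libraries of each group (x axis); coloured points are libraries, black bars the mean ± SD. ENSDART00000135116.2 and ENSDART00000158468.2 reach at most 0.387 TPM in Cf.Bm.10hpf, and ENSDART00000182735.1 and ENSDART00000185524.1 average 62.2 and 58.5 TPM there.

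Depth separated the strongest ratios from the rest. The 50 members of lowest ratio had a median of 12.9 estimated counts per father-only library, the next 50 had 65.8, the next 50 had 134 and the last 50 had 149. All 21 members with fewer than 10 counts on average in Cf.Bm.10hpf were among the first 50. Over all members the median count was 74.7 in Cf.Bm.10hpf and 139 in the other 12 libraries. A ratio far below the bulk was therefore seen mainly where the counting error is largest.

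**Figure D3:**
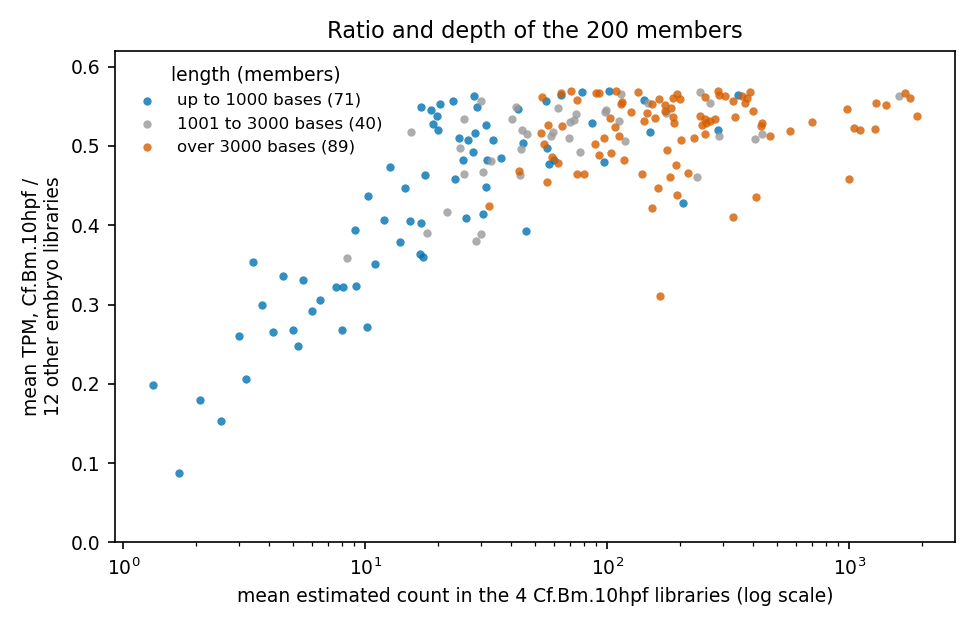
Ratio of mean TPM, Cf.Bm.10hpf over the other 12 embryo libraries (y axis, no unit), against the mean estimated count in the 4 Cf.Bm.10hpf libraries (x axis, log scale), 1 point per member, coloured by length. The 21 members under 10 counts hold ratios below 0.4, and the 89 members over 3000 bases have a median ratio of 0.531.

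The members fell into a short and a long class, with few in between. Of the 200, 71 (35.5%) were at most 1000 bases long and 89 were longer than 3000 bases, leaving 40 in between. Their median length of 2473 bases describes neither class. The size of the short class depended on the scale and floor of the choice. The 200 chosen on CPM, with a floor of 1 CPM in place of 1 TPM, included 150 members. That set held 32 up to 1000 bases and 127 over 3000, with a median of 4044.5 bases. The change of scale and the change of floor were not separated. The short members had a median ratio of 0.458 at 19.8 counts per father-only library, and the long ones 0.531 at 186 counts. The 50 members of lowest ratio included 36 of at most 1000 bases, and had a median length of 820.5 bases, against 3738 bases in the last 50. The 423 qualifying transcripts beyond the limit were longer still, at a median of 4549 bases with 8.27% up to 1000 bases, while all 22431 had a median of 1773 bases with 26.8% up to 1000.

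Long transcripts qualified more often than short ones. Among all 22431, 1.1% of those up to 500 bases were lowest in Cf.Bm.10hpf without overlap, 1.01% from 1000 to 2000 bases, 4.39% from 3000 to 5000, 10.1% from 5000 to 10000 and 21.6% (30 of 139) above 10000 bases. A long transcript collects more reads at the same TPM, so its counting error is smaller. Among transcripts of 300 to 1000 estimated counts on average, a band chosen after seeing the data, 1.26% qualified up to 1000 bases, 1.28% from 1000 to 3000, 6.13% from 3000 to 5000 and 12.9% above 5000. In that band the median ratio of all transcripts, Cf.Bm.10hpf over the other 12, was 0.994, 0.953, 0.900 and 0.832 in the same 4 classes. The gradient with length was thus also seen within this band, which matches transcripts on counts alone. What lies behind the gradient was not tested. The effective length of the members, the part salmon counts as able to yield fragments, as a share of their full length had a median of 53.0% to 57.4% in Cf.Bm.10hpf and 55% to 58% in the other 12 libraries.

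**Figure D4:**
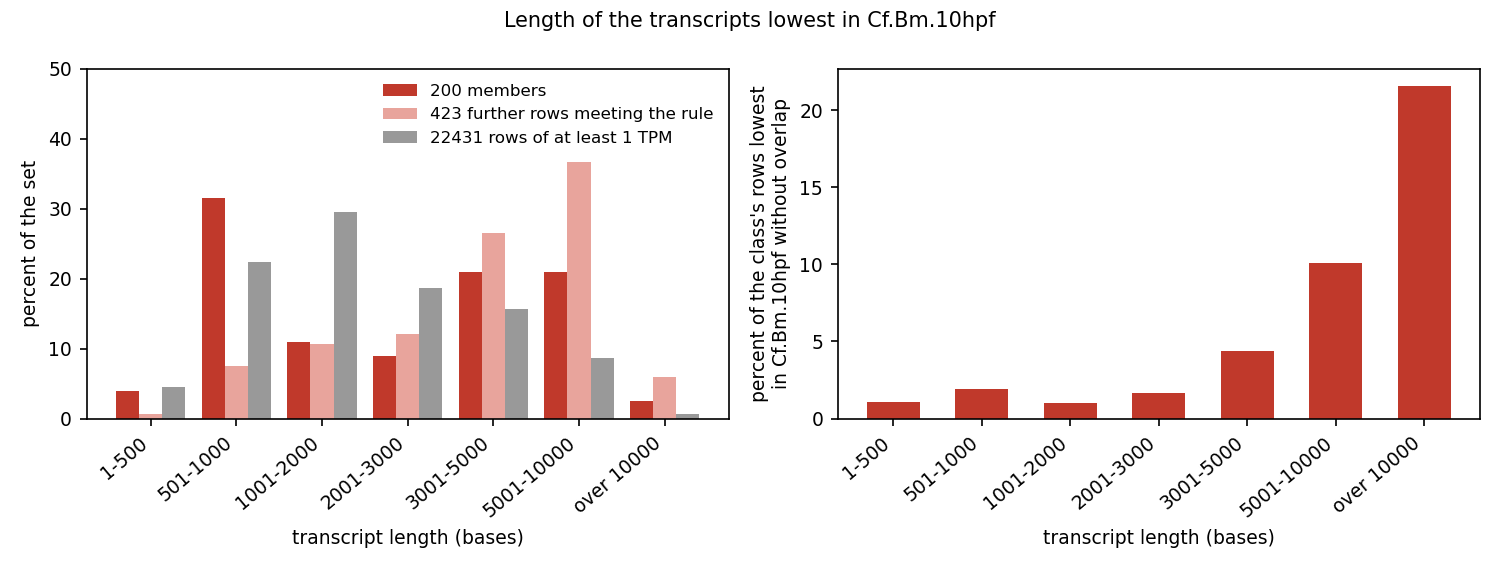
Left, percent of the 200 members, of the 423 further qualifying transcripts and of all 22431 transcripts (y axis) in 7 length classes (x axis, bases); right, percent of each class's transcripts that were lowest in Cf.Bm.10hpf without overlap. Members peak at 500 to 1000 bases and again above 3000, and the right panel climbs to 21.6% above 10000 bases.

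The longest member, of 88553 bases and picked here for its length, stood at 1.05 ± 0.115 TPM in Cf.Bm.10hpf. Its level was 1.91 ± 0.260 TPM in Cm.Bf.10hpf, 2.07 ± 0.596 TPM in BaP 10hpf and 1.88 ± 0.356 TPM in Control 10hpf (SD, n = 4 each). In eggs it was at 0.209 ± 0.0793 TPM with BaP-fed mothers and 0.219 ± 0.0810 TPM with control mothers (SD, n = 4 each). The median egg level of the members over 3000 bases was 1.07 TPM, so the longest lay well below its class in eggs.

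Members were not abundant transcripts. Their mean over the 16 embryo libraries was under 2 TPM for 56, from 2 to 10 TPM for 111 and at least 10 TPM for 33 (16.5%), against 40.9% at 10 TPM or more in the 423 further qualifying transcripts. Salmon, the tool behind the values, divides reads shared by isoforms of a gene by estimate, which leaves fractional counts. Only 8 members (4.0%) had whole counts (within 0.001) in all 16 embryo libraries, against 12.5% of the 423 and 18.5% of the 22431. For the other 192 a lower value can reflect another division of reads among isoforms, which was not tested.

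The members were mostly scarce in eggs. Their median egg level was 0.774 TPM, against 9.08 TPM for all 22431 transcripts, and 88 (44.0%) reached 1 TPM in eggs, against 78.3% overall. In the 12 non-father-only embryo libraries their mean was a median of 5.55 times the egg mean (interquartile range 3.49 to 9.36), against 2.76 times for the 423 further qualifying transcripts and 1.03 times overall. That embryo mean is also the rule's divisor, so the ratio to eggs is not independent of the choice. Short members had the larger step, 9.26 times, and long ones 4.75 times. In father-only embryos the members had a median of 2.77 times the level of control eggs, the eggs of the same kind of mother. In Control 10hpf embryos it was 5.29 times, an order that the rule fixed.

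Control 10hpf embryos were tested against control eggs, and BaP 10hpf embryos against BaP eggs, in separate edgeR fits. Of 195 members tested in the control lineage, 180 rose in embryos and 6 fell at an adjusted p under 0.05, while 9 did not pass. Among all transcripts tested, 37.2% rose and 38.5% fell. Among those averaging at least 1 TPM in embryos, the same floor the members had to clear, 46.6% rose. The share that fell above this floor is not given for either lineage, so the falls of members have no like background. The median log2 fold change was 2.72 for the members and 0.42 for transcripts above that floor. In the BaP lineage, 182 of 194 members tested rose, 5 fell and 7 did not pass, against 37.0% rising and 36.5% falling among all tested and 46.0% rising above the floor. The median there was 3.12 for the members and 0.40 above the floor. The rule required both embryo groups to lie above Cf.Bm.10hpf and divided by a mean that holds them. The embryo side of these rises is therefore not independent of the choice, and the rises are given as description. The 182 members called in both lineages moved the same way in both, 177 up and 5 down. The same count over all transcripts was not made, so this is not read as particular to the members. The count of 5 that fell was 3 without replicate 3 of BaP 10hpf.

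The largest class was an intermediate rise. A change of 4 to 8 times was seen for 81 members (40.5%), against 7.93% of all 22431, and 10.3% of the transcripts in this class qualified. Larger rises were also more common among members, with 28 (14.0%, against 5.25%) at 8 to 16 times and 32 (16%, against 11.7%) at 16 times or more. Of all transcripts in those 2 classes 5.35% and 2.70% qualified, and 0.613% of those at under 0.25 times their egg level, of which 0 were among the 200. The 2.70% was near the 2.78% of all 22431 that qualified, so a rise of 16 times or more is not read as particular to the members. Long transcripts in the class of 4 to 8 times qualified most often. In all, 23.7% of transcripts over 3000 bases in the class of 4 to 8 times qualified, against 5.09% of long ones outside it, 4.91% of shorter ones in it and 1.16% of shorter ones outside it.

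**Figure D5:**
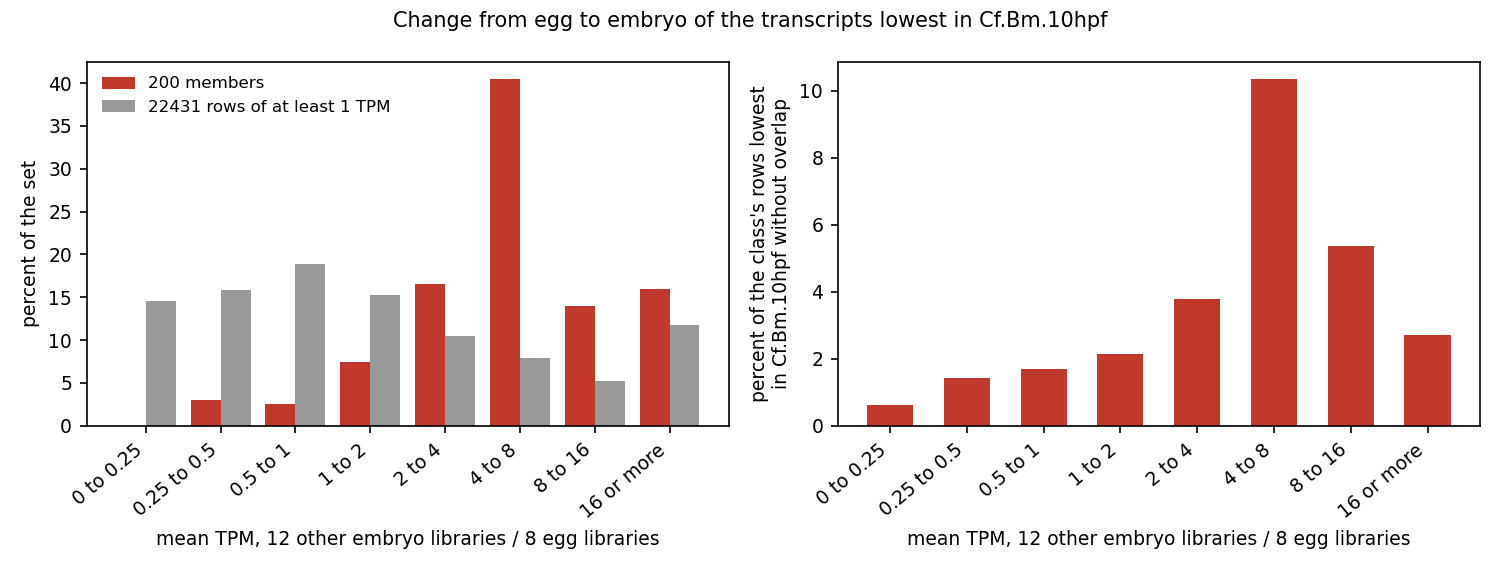
Left, percent of the 200 members and of all 22431 transcripts (y axis) by the ratio of mean TPM, the 12 embryo libraries outside Cf.Bm.10hpf over the 8 egg libraries (x axis, no unit); right, percent of each class's transcripts that were lowest in Cf.Bm.10hpf without overlap. The class of 4 to 8 times holds 40.5% of the members and has the highest share qualifying, 10.3%.

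Several members had no count in eggs. In control eggs 12 members had 0 counts, and taking 3 counts per group as the floor, their level in Control 10hpf was at least 12.9-fold to at least 825-fold higher. In BaP eggs 5 members had 0 counts, and BaP 10hpf was at least 12-fold to at least 147-fold higher. The floor covers counting error only. ENSDART00000188255.1, of 8587 bases, had the largest called rise. It had 2.06, 2.47, 2.14 and 2.44 TPM in Control 10hpf and 0 in all 4 control egg libraries, at least 825-fold (edgeR adjusted p = 5.01e-07). In Cf.Bm.10hpf it had 1.49, 0.486, 1.42 and 1.01 TPM, so the father-only embryos also carried it well above the egg level, with replicate 2 the lowest. ENSDART00000136114.2, of 1155 bases, had 4.05, 5.95, 5.64 and 5.55 TPM in Control 10hpf against 0 in control eggs, at least 228-fold (edgeR adjusted p = 8.21e-06), and 2.86, 2.47, 3.36 and 2.32 TPM in Cf.Bm.10hpf.

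The abundant ENSDART00000182735.1 showed the common pattern. It averaged 12.4 ± 0.551 TPM in BaP eggs and 12.9 ± 2.85 TPM in control eggs (SD, n = 4 each), with overlapping groups. Its log2 fold change from egg to embryo was 3.35 ± 0.16 (SE, edgeR adjusted p = 1.74e-07) in the control lineage and 3.69 ± 0.13 (SE, edgeR adjusted p = 1.42e-07) in the BaP lineage. ENSDART00000185524.1 rose by 2.92 ± 0.21 (SE, edgeR adjusted p = 2.31e-06) and 3.42 ± 0.27 (SE, edgeR adjusted p = 8.35e-06) in the same 2 lineages. The low member ENSDART00000158468.2 behaved otherwise. Its log2 fold change was 0.97 ± 0.45 (SE, edgeR adjusted p = 0.0800) in the control lineage, which did not pass, and 1.24 ± 0.40 (SE, edgeR adjusted p = 0.0198) in the BaP lineage. The BaP-lineage call was lost with a replicate block, at a log2 fold change of 1.17 (edgeR adjusted p = 0.0981), with no filter on low counts, at 1.20 (0.0699), and without replicate 3 of BaP eggs, at 1.15 (0.0580), or of BaP 10hpf, at 0.93 (0.0792).

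A minority of members were lower in embryos than in eggs, 11 of the 200 by mean TPM. ENSDART00000126381.4, of 4965 bases, had 1.22, 1.42, 1.85 and 1.15 TPM in Cf.Bm.10hpf and 1.92, 2.85, 2.78 and 3.42 TPM in Control 10hpf. It had 8.28, 9.19, 10.6 and 8.62 TPM in BaP eggs and 17.9, 11.1, 10.2 and 13.3 TPM in control eggs. Embryos and eggs did not overlap, and the log2 fold change was -1.94 ± 0.23 in the control lineage (SE, edgeR adjusted p = 7.06e-05) and -1.03 ± 0.16 in the BaP lineage (SE, edgeR adjusted p = 4.26e-04). ENSDART00000172709.2, of 4638 bases, had 0.610, 0.855, 0.618 and 0.492 TPM in Cf.Bm.10hpf and 0.970, 1.34, 1.08 and 1.47 TPM in Control 10hpf, against 3.40, 6.28, 4.84 and 4.86 TPM in control eggs. Its log2 fold change was -1.59 ± 0.22 (SE, edgeR adjusted p = 1.86e-04) in the control lineage. For both, father-only embryos were farther below the egg level than control embryos were, which the rule fixes for any member that falls.

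Taking the father-only mean against control eggs, 173 of the 200 members were higher in embryos, against 188 for the Control 10hpf mean. All 4 father-only libraries exceeded the highest control egg library for 142 members, and all 4 Control 10hpf libraries did so for 175 (87.5%, against 38.3% of all 22431). The share of all transcripts was not computed for the father-only counts or for the 188. Over all 22431 the father-only mean was a median of 0.980 times the control egg mean. That father-only counts are the smaller was fixed by the rule, which puts father-only values below those of Control 10hpf. By mean TPM, the reduced level of most members in Cf.Bm.10hpf was therefore still above the level in control eggs. Without the share of all transcripts, this is not read as particular to the members.

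BaP eggs and control eggs were set against each other, a contrast that the choice of members did not use. Of the 200 members, 140 had enough counts to be tested, and 0 were called in either direction, as was 0.0% of all 29023 transcripts tested by edgeR. At an unadjusted p under 0.05 there were 8 members (5.71% of those tested), 2 of them higher, and 1044 of all transcripts (3.60%). DESeq2 called 0 members and 107 transcripts in all, for which no share was computed. The median log2 fold change of the tested members was -0.10, with 50 above 0 and 90 below, against 0.00 for all transcripts above the floor of 1 TPM. TPM of the egg groups did not overlap for 2 members that were higher in BaP eggs, where 1.93% of all 22431 were, and 3 that were lower, where 0.642% were.

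The 2 members of smallest p in each direction had log2 fold changes of 0.23 to 0.72 in size. ENSDART00000136245.3, of 5997 bases, had 8.69, 7.72, 8.37 and 8.22 TPM in BaP eggs against 7.09, 7.23, 6.27 and 6.71 TPM in control eggs (log2 fold change 0.23 ± 0.10, SE, edgeR adjusted p = 1.00). ENSDART00000130147.4, of 6168 bases, averaged 0.456 ± 0.111 TPM in BaP eggs and 0.273 ± 0.0622 TPM in control eggs (SD, n = 4 each), with log2 fold change 0.72 ± 0.30 (SE, edgeR adjusted p = 1.00). On the other side, ENSDART00000189066.1, of 4960 bases, had 0.462, 0.575, 0.552 and 0.503 TPM in BaP eggs against 0.686, 0.693, 0.915 and 0.778 TPM in control eggs (log2 fold change -0.60 ± 0.19, SE, edgeR adjusted p = 1.00). ENSDART00000175701.2, of 4641 bases, averaged 1.79 ± 0.308 TPM in BaP eggs and 2.54 ± 0.415 TPM in control eggs (SD, n = 4 each; log2 fold change -0.55 ± 0.19, SE, edgeR adjusted p = 1.00). The egg groups did not overlap for ENSDART00000136245.3 and ENSDART00000189066.1 and overlapped for the other two, and none of the 4 passed the adjustment.

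Among the other 3 crosses the members were not level. BaP 10hpf had the highest mean of the 3 for 170 members (85.0%, against 45.3% of all 22431), Control 10hpf for 24 (12%, against 31.6%) and Cm.Bf.10hpf for 6 (3.0%, against 23.1%). The median ratio of father-only to cross means was 0.579 for Cm.Bf.10hpf, 0.445 for BaP 10hpf and 0.527 for Control 10hpf. The rule divides by the mean of the other 12 libraries, so a transcript that is high in any of the 3 crosses enters more easily, and these figures are part of the description. Replicate 2 of BaP 10hpf, the library with the most egg-rich RNA, lay below the other 3 for most members: the group's mean of the median member was 1.15, and 1.23 without it.

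In the edgeR fit of all 16 embryo libraries, BaP 10hpf and Cm.Bf.10hpf were each compared with the same Control 10hpf libraries. All of these crosses enter the mean that the rule divides by, which favours transcripts high in any of them. The members' shifts between them, and the shares beside them, are therefore given as description. For BaP 10hpf over Control 10hpf, 0 of the members, all but 1 of which were tested, were called, against 0.00324% higher (1 transcript) and 0.0% lower of 30894 tested. The median log2 fold change was 0.24 for the members and 0.01 for transcripts above the floor, and 171 members (85.9%) were above 0, against 51.2%. At an unadjusted p under 0.05 there were 31 members (15.6% of those tested), all higher, and 3206 of all transcripts (10.4%). The direction of the 3206 was not counted. DESeq2 called 1 member, higher, of 271 transcripts, for which no share was computed. The groups did not overlap for 13 members that were higher in BaP 10hpf (6.5%, against 3.52%) and for 0 that were lower (1.39% overall). For Cm.Bf.10hpf over Control 10hpf, 0 members were called, as was 0.0% of all tested in either direction. The median was -0.13 for the members and 0.01 above the floor, with 150 members below 0. At an unadjusted p under 0.05 there were 4 members (2.01% of those tested) and 1291 of all transcripts (4.18%). DESeq2 called 0 members and 69 transcripts, again without a computed share. No overlap was seen for 1 member that was higher in Cm.Bf.10hpf (1.66% overall) and 7 that were lower (1.73% overall).

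ENSDART00000184126.1, of 7695 bases, had the smallest p for BaP 10hpf and is the member that DESeq2 called (adjusted p = 0.0253). It had 1.01, 1.01, 1.34 and 0.982 TPM in Cf.Bm.10hpf, 3.20, 2.27, 2.80 and 3.54 TPM in BaP 10hpf and 1.80, 2.09, 1.87 and 1.93 TPM in Control 10hpf. BaP 10hpf and Control 10hpf did not overlap, and the rule fixed the separation of Cf.Bm.10hpf from both. In Cm.Bf.10hpf the transcript had 2.09, 1.77, 2.56 and 2.16 TPM, which overlapped BaP 10hpf and Control 10hpf. Its log2 fold change, BaP 10hpf over Control 10hpf, was 0.60 ± 0.15 (SE, edgeR adjusted p = 0.345). ENSDART00000165131.3, of 5730 bases, averaged 3.91 ± 0.572 TPM in BaP 10hpf and 2.86 ± 0.211 TPM in Control 10hpf (SD, n = 4 each; log2 fold change 0.42 ± 0.12, SE, edgeR adjusted p = 0.350). In the other direction ENSDART00000146681.2, of 677 bases, had 10.3, 8.02, 12.4 and 8.43 TPM in BaP 10hpf against 6.88, 15.5, 7.0 and 37.5 TPM in Control 10hpf (edgeR adjusted p = 0.531), so a single control library set its mean. ENSDART00000137766.2, of 754 bases, averaged 2.67 ± 0.768 TPM in BaP 10hpf and 3.49 ± 1.21 TPM in Control 10hpf (SD, n = 4 each; edgeR adjusted p = 0.757).

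For Cm.Bf.10hpf no named member passed the adjustment either. ENSDART00000139535.2, of 870 bases, had 2.82, 2.75, 3.14 and 3.99 TPM in Cm.Bf.10hpf against 2.39, 2.32, 1.24 and 2.48 TPM in Control 10hpf (log2 fold change 0.64 ± 0.36, SE, edgeR adjusted p = 1.00). ENSDART00000142467.3, of 623 bases, averaged 7.95 ± 1.99 TPM and 5.11 ± 0.676 TPM in the same 2 groups (SD, n = 4 each; edgeR adjusted p = 1.00). ENSDART00000165052.2, of 7663 bases, was lower, with 17.7, 16, 17.6 and 16.6 TPM in Cm.Bf.10hpf against 18.9, 24.3, 21.4 and 22.6 TPM in Control 10hpf (log2 fold change -0.34 ± 0.13, SE, edgeR adjusted p = 1.00). ENSDART00000159580.2, of 491 bases, averaged 4.51 ± 0.623 TPM in Cm.Bf.10hpf and 7.28 ± 1.06 TPM in Control 10hpf (SD, n = 4 each; log2 fold change -0.67 ± 0.27, SE, edgeR adjusted p = 1.00). Except for ENSDART00000142467.3, whose lowest Cm.Bf.10hpf library was below 2 control libraries, the groups of these 4 did not overlap.

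To set BaP 10hpf beside Cm.Bf.10hpf without the rule's division by both, 200 transcripts were chosen by the same rule on Cf.Bm.10hpf and Control 10hpf alone. Of 1591 that qualified, the 200 of lowest ratio shared 70 with the members and had a median length of 812.5 bases. In them the median ratio of mean TPM, BaP 10hpf over Cm.Bf.10hpf, was 1.35, and 173 (86.5%) were above 1, against a median of 1.03 and 58.6% for all 22042 transcripts above the floor in those 2 crosses. The groups did not overlap, with BaP 10hpf higher, for 17 (8.5%, against 2.74%). Without replicate 2 of BaP 10hpf, a reading added after seeing the data, the median was 1.42 with 174 above 1. In most of the 200 so chosen, BaP 10hpf thus stood above Cm.Bf.10hpf, and what lies behind this was not tested. All 22042 transcripts had a median length of 1776 bases, and neither length nor depth was matched.

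In the same fit edgeR called 61 members lower in Cf.Bm.10hpf than in Control 10hpf and 0 higher, against 0.414% lower and 0.00971% higher of all 30894 tested, with a median log2 fold change of -0.82. The rule chose on this contrast, so nothing follows from these counts. Choosing 200 again with 1 father-only library held out gave a value that the choice had not used. The sets so chosen shared 152, 132, 99 and 140 transcripts with the members for replicates 1 to 4, so they describe partly other transcripts. In the library held out, the median ratio of the 200 to the mean of the other 12 embryo libraries was 0.495, 0.526, 0.647 and 0.528 for replicates 1 to 4, against 0.904, 0.900, 0.962 and 0.916 for all transcripts above the floor. Of the 200, 158, 135, 100 and 148 were below the lowest of the 12, against 19.0%, 16.9%, 10.0% and 22.4% of all. The 12 libraries served both the choice and the reading, so these values share that side.

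Members also varied together in libraries where they were not low. Deviations of log2(TPM + 0.5) from the cross mean were correlated between pairs of members over the 12 embryo libraries outside Cf.Bm.10hpf, which share depth and preparation, and are given as a description. The median pairwise Pearson r was 0.33 for the members, 0.57 for those over 3000 bases and 0.14 for those up to 1000 bases. It was 0.040 for all 22431 transcripts and 0.067 for those over 3000 bases. Without BaP 10hpf (8 libraries) the medians were 0.23 for the members and 0.47 for the long ones. In the 8 egg libraries they were 0.060 and 0.11, against 0.042 for all. All transcripts over 3000 bases had 0.11 in eggs as well. The long members thus stood above all transcripts of that length in embryos and level with them in eggs. The rule used the values of these embryo libraries. The 423 further qualifying transcripts, and long transcripts of like rise, were not compared, so this is not read as particular to the members.

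Spread between replicates of the members is given as a description. The rule drops transcripts whose spread makes Cf.Bm.10hpf overlap the other crosses. The members also had fewer counts, a median of 74.7 in Cf.Bm.10hpf against 255 for all 22431, and transcripts of like depth were not compared. Their median coefficient of variation was 19.4% in Cf.Bm.10hpf, 14.7% in Cm.Bf.10hpf, 19.8% in BaP 10hpf and 16.4% in Control 10hpf. Over all 22431 it was 17.4%, 15%, 18.5% and 16.6%. Short members spread more than long ones in every cross, for example 26.5% against 16.8% in Cf.Bm.10hpf.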

How the data were processed

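Per the file headers, each of the 24 RNA tables, as deposited by the authors, holds a length, effective length, TPM value and estimated count of reads for the same 57192 Ensembl transcripts. Per the submitters' processing notes, FastQC, Salmon and DESeq2 were used with GRCz11. Tool versions: not given in the sources used here. Libraries were ribosome-depleted total RNA sequenced as read pairs, per the labels' protocols. The 32 bisulfite samples were not analysed here. No transcript identifier matched the gene tables at hand (0 of 57192), so the lists of markers and pathways and sequences were not used.

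TPM, as deposited, chose and described the members. Estimated counts were rounded and tested with edgeR 4.0.16 (R 4.3.3, limma 3.58.1; TMM, filterByExpr, robust quasi-likelihood fit, Benjamini-Hochberg over all transcripts tested, call at an adjusted p under 0.05). The 16 embryo libraries were fitted together, eggs alone, and each lineage's stage change alone. The scripts were tested on simulated data. Of the members, 140 passed the count filter in eggs, 195 and 194 in the stage fits and all but 1 in embryos. DESeq2 1.42.0, other scaling factors, no filter, a replicate block and leaving out each library were alternatives. Libraries were not paired by replicate number in the main fits.

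Members and lists were chosen with earlier results of these data known. Named transcripts were, per comparison, at most 2 higher and 2 lower: those of lowest ratio, highest mean TPM, largest called stage change, and smallest p elsewhere.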

Additional observations from a re-analysis of the deposited data

Results flagged for a closer look

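Cf.Bm.10hpf and BaP 10hpf stood on opposite sides of the crosses that share their mothers' diet. The median member ratio, BaP-fed father minus control father, was -0.452 with control mothers (Cf.Bm.10hpf minus Control 10hpf; each Cf.Bm.10hpf library against the Control 10hpf mean gave -0.492 to -0.371). With BaP-fed mothers it was 0.284 (BaP 10hpf minus Cm.Bf.10hpf; 0.036 to 0.410 by library). The difference was not tested. The first side was fixed by the choice of the members. The second can also have been shaped by it, since dividing by the mean of the other 12 libraries favours transcripts high in any other cross.

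Of 117 groups of 4 libraries of the 20 named transcripts, leaving out those at 0 throughout, 15 held a library far from the other 3. Of 24 further groups, checked for the members' level, egg-rich RNA and effective length, 0 did. The cutoff flags about 1 in 20 groups only if values are normally distributed. A group with counts in a single library is always flagged, and the named transcripts were picked as extremes. The 15 are therefore not read as an excess. Replicate 3 of Cf.Bm.10hpf was high for ENSDART00000182735.1 (78.4 TPM), ENSDART00000165052.2 (14.3 TPM) and ENSDART00000184126.1 (1.34 TPM). In BaP 10hpf, replicate 2 was low for ENSDART00000126381.4 (2.61 TPM), replicate 4 for ENSDART00000136245.3 (2.22 TPM) and replicate 1 for ENSDART00000139535.2 (1.48 TPM). Replicate 3 of Control 10hpf was low for ENSDART00000139535.2 (1.24 TPM). In BaP eggs, replicate 3 was at 0.0 TPM for ENSDART00000135116.2 and high for ENSDART00000165131.3 (2.17 TPM), and single libraries alone held counts of ENSDART00000188255.1 (0.0264 TPM, replicate 2), ENSDART00000136114.2 (0.384 TPM, replicate 4) and ENSDART00000146681.2 (0.164 TPM, replicate 4). In control eggs, replicate 3 was high for ENSDART00000130147.4 (0.365 TPM) and ENSDART00000165052.2 (6.35 TPM), and replicate 2 alone held ENSDART00000146681.2 (0.134 TPM).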

How the results depend on the processing

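The number of transcripts lowest in Cf.Bm.10hpf, 623, was 390 on TMM-scaled TPM, 1591 with Control 10hpf alone as the other side, and 627 to 1221 with 1 embryo library left out. The 1221 came without replicate 3 of Cf.Bm.10hpf, and fewer libraries or 1 cross make the condition easier to meet. Chosen on CPM, with a floor of 1 CPM in place of 1 TPM, the members had a median length of 4044.5 bases. Their median embryo to egg ratio was 4.96. The 144 members of at least 2 TPM had a ratio of 6.06. With libraries left out, 174 to 180 members rose and 6 to 7 fell in the control lineage, and 179 to 184 rose and 3 to 5 fell in the BaP lineage. Falls in the BaP lineage numbered 3 with upper-quartile factors and 2 among members of at least 2 TPM, of which 3 fell in the control lineage. The cause was not tested, apart from the smaller set. In eggs and between the other crosses 0 members were called under every edgeR alternative and 0 with each library left out, and DESeq2 called 1 for BaP 10hpf over Control 10hpf. Over these settings the members' median log2 fold change ran from 0.19 to 0.32 for BaP 10hpf over Control 10hpf, from -0.16 to -0.09 for Cm.Bf.10hpf over Control 10hpf and from -0.15 to -0.06 for BaP eggs over control eggs. Correlations between libraries of the same replicate number were weak, from -0.11 to 0.22. The best match still carried the same number for 3 of 4 replicates in BaP eggs over control eggs. The same held for BaP 10hpf over BaP eggs and over Control 10hpf, and for 0 in the other comparisons. Whether the numbers pair libraries therefore stays unsettled. With the replicate block, 172 rose and 5 fell in the control lineage, 179 rose and 3 fell in the BaP lineage, and 0 were called elsewhere. Of 402 values of named transcripts under alternatives, 395 stayed on their side of the threshold, 3 moved past it, 4 no longer passed and 0 reversed. All 4 lost calls were of ENSDART00000158468.2 in the BaP lineage, where the log2 fold change ran from 0.93 to 1.20. Depth limits the strongest ratios most, since 21 members averaged under 10 counts in Cf.Bm.10hpf.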
